A study of Mus musculus with 34 samples.

Results

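The 10 genes described here encode proteins of the smooth muscle contractile apparatus or a secreted target of the same transcription factors: *Acta2*, *Actg2*, *Myl9*, *Myh11*, *Tpm1*, *Tpm2*, *Tagln*, *Cnn1*, *Cald1*, and *Ctgf*. They were chosen by name for what they encode, but with earlier results of these data known, so counts of members below are descriptions. All 10 were found, and they are 10 of 23109 genes listed in 14 RNA-Seq libraries. Each gene was read from its RefSeq transcript with the highest mean RPKM, in which the reads are divided by the length of the transcript and by the depth of the library. The cells were brown preadipocytes, the precursors of brown fat cells, taken from newborn C57BL/6J mice and made to divide indefinitely with SV40T. According to the labels they carry a floxed glucocorticoid receptor gene (GR-flox/flox), and the protocol adds that retroviral Vec or Cre was used to obtain WT or GR KO cells, without saying which of these the libraries come from. In 6 libraries the cells expressed retroviral wild-type (WT) histone H3.3 or H3.3 with lysine 36 changed to methionine (K36M), which lowers H3K36 methylation, and were collected before adipogenesis (D0), at D2 in induction medium, and at D7. In 4 libraries the cells carried lentiviral control (Ctrl) or *Nsd2* knockdown (KD) shRNA and were collected at D0 and D2, Nsd2 being an H3K36 di-methyltransferase. The labels do not say which *Nsd2* shRNA was used. In 4 libraries WT or K36M cells also expressed retroviral PPARγ and were sub-confluent, and these were either treated with DMSO (time label 0 h) or with the PPARγ ligand Rosiglitazone (Rosi) for 24 h.

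Serum response factor (SRF) binds CArG boxes in the control regions of muscle and cytoskeletal genes. Among its partners of the myocardin family, Mkl1 and Mkl2 are held back by monomeric actin and enter the nucleus when actin is built into filaments, as happens in spread, tense, or TGF-β-treated cells. Loss of actin stress fibres accompanies the rounding of preadipocytes into fat cells, and SRF and Mkl1 are known as brakes on adipogenesis. *Ctgf* is also a classical target of YAP and TEAD, which respond to the same tension.

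The stretches before the starts of 3 members are shown as examples that carry matches to the CArG box (*Acta2* and *Myl9*) or to the TEAD motif alone (*Tpm1*). The RefSeq promoter table (GRCm38.p6) held 7 entries for 6 of the 10 members (*Acta2*, *Myl9*, *Tpm1*, *Tpm2*, *Cnn1*, and *Cald1* with 2 starts), and *Tagln*, *Actg2*, *Myh11*, and *Ctgf* had none. The 250 bases before each start were searched on both strands for the CArG box, for a CArG box with at most 1 G or C among its 6 inner bases, and for GGAATG, the core of the TEAD motif. Capitals mark matches to the relaxed CArG box (10 letters) or to GGAATG, and no matches overlapped.
Acta2, chr19:34255374-34255623, minus strand: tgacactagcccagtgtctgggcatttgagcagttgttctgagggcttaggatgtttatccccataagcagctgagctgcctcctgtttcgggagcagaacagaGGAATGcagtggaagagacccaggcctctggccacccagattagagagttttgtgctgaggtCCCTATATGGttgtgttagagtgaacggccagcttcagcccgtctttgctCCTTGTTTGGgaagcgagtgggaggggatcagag
Myl9, chr2:156775214-156775463, plus strand: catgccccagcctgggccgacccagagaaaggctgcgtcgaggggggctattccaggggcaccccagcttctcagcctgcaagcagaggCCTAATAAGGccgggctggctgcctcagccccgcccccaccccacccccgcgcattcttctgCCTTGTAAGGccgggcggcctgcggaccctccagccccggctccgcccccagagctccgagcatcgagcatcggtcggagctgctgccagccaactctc
Tpm1, chr9:67049214-67049463, minus strand: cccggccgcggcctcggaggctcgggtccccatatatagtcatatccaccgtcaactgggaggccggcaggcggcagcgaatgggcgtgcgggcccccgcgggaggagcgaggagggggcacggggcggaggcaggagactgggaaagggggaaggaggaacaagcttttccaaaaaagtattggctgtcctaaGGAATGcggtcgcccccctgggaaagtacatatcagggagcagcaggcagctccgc
*Acta2* held 2 relaxed CArG boxes, CCCTATATGG beginning 84 bases and CCTTGTTTGG beginning 34 bases before the start, and GGAATG 146 bases before it. *Myl9* held the strict CArG box CCTAATAAGG beginning 161 bases before the start and the relaxed CCTTGTAAGG beginning 99 bases before it. *Tpm1* held GGAATG 56 bases before the start, and *Cald1* held it 153 bases before the start of 1 of its 2 entries. No match was found for *Tpm2*, *Cnn1*, or the other *Cald1* entry. Of the 6 members with an entry, 2 thus had a relaxed CArG box, 1 a strict one, and 3 had GGAATG. A strict CArG box was present in 1.47% and a relaxed one in 8.59% of 32851 windows of the same length in the table, at least 2 relaxed ones in 0.67%, and GGAATG in 12.6%. These are matches of letters within a short window, and nothing was measured on the binding of SRF or TEAD.

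Each condition had 1 library, so no difference below has a replicate check and no test was made. The libraries held 12213559 to 24365867 mapped reads. The whole reads behind each RPKM were recovered, and every interval given is a 95% interval of the counting error of those reads only. Genes that reached an RPKM of 1 in 1 or more of the libraries under comparison were counted, and those with a ratio over 2-fold are called lower or higher. Since a gene can pass this filter through the library in which it is high, the share of all counted genes that were called in that direction stands beside each count of members as its background. The only measure of spread beyond counting is between the 3 control populations before induction or ligand (WT D0, Ctrl D0, and WT with PPARγ in DMSO), which are not replicates: they differed 1.45-fold for *Cald1*, 1.64-fold for *Myl9*, 1.88-fold for *Ctgf*, 2.59-fold for *Acta2*, 4.06-fold for *Cnn1*, and 7.20-fold for *Myh11*. In the *Nsd2* check, *Nsd2* (transcript NM_175231) had an RPKM of 19.9 in Ctrl and 5.85 in KD cells at D0, and of 29.0 and 7.01 at D2. *Actg1*, the non-muscle γ-actin, was listed between 3.69 and 14.4 RPKM in the 6 libraries of the WT and K36M course and between 309 and 1929 in the other 8, and *Ppia*, a reference gene, differed the same way (0.753 to 2.24 against 290.2 to 550.4), so comparisons of conditions were made within an experiment, and values set across experiments (the spread above, and the profiles and ranges over all 14 libraries) are descriptions.

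During adipogenesis of WT cells, the contractile genes were lower at D2 and partly back by D7. Of the 9 members counted, 9 were over 2-fold lower at D2 than at D0, against a background of 17.3% of 12155 genes, and their median log2 ratio was -4.98 against -0.01 for all counted genes. At D7 again 9 of 9 were over 2-fold lower than at D0 (background 8.9%), with a median of -2.29 against -0.01. From D2 to D7, 6 of 8 were over 2-fold higher (background 15.7%), with a median of 2.64 against 0.04. *Myh11*, the heavy chain of smooth muscle myosin, stayed under 1 RPKM in all 3 WT libraries and was not counted, and *Cnn1*, under 1 at D2 and D7, was left out between these days. In K36M cells the members stood closer to their D0 levels. Of 10 counted members, 8 were over 2-fold lower at D2 than at D0 (background 11.2%, median -2.75 against -0.07), and 4 were at D7 (background 7.8%, median -0.66 against 0.06). From D2 to D7, 6 of 9 were over 2-fold higher (background 15.7%). These comparisons share the D0 or D2 library of their cells. In bulk RNA, fewer cells with a transcript and less of it per cell cannot be told apart.

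**Figure D1:**
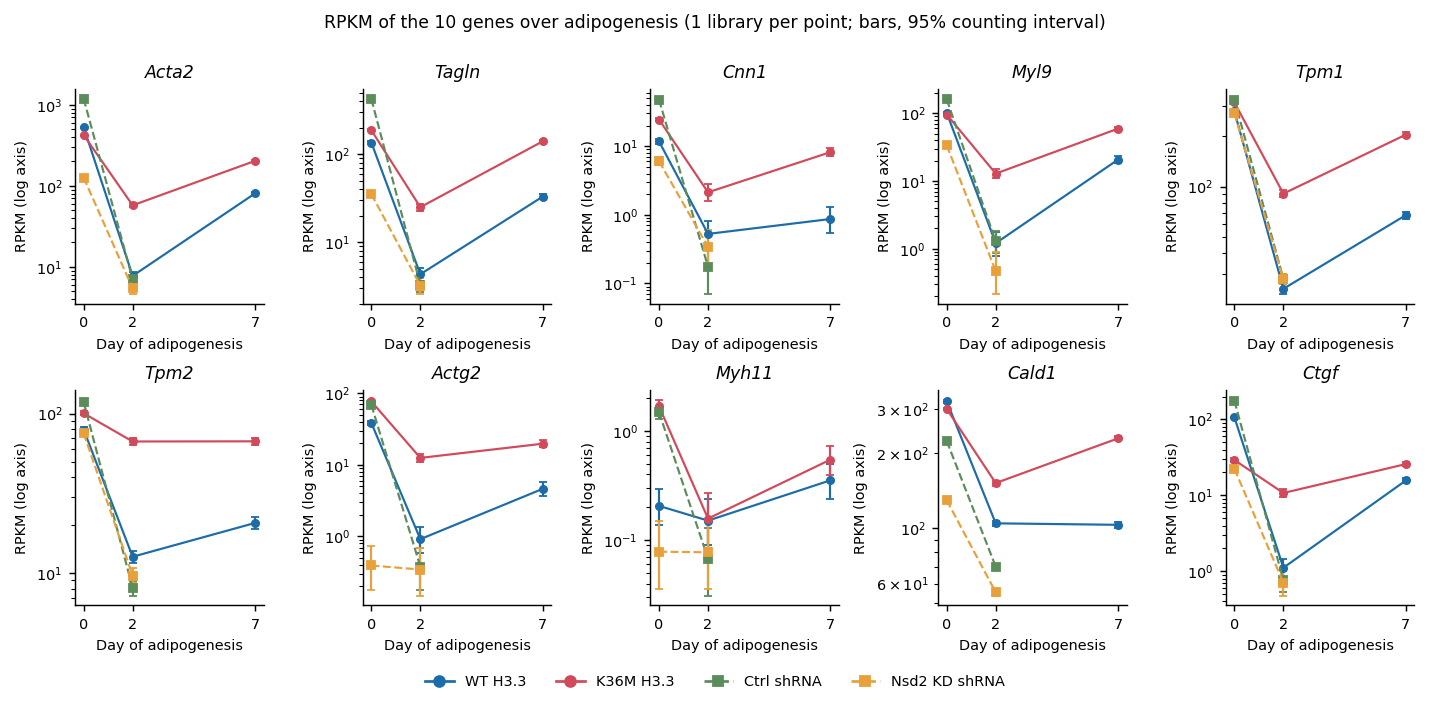
RPKM (log axis) of each of the 10 genes against the day of adipogenesis, with 1 point per library, for WT (blue) and K36M (red) H3.3 cells at D0, D2, and D7 and for Ctrl (green) and *Nsd2* KD (orange) cells at D0 and D2; each panel has its own scale and bars are 95% counting intervals. At D2 *Acta2* stood at 57.5 RPKM in K36M cells and between 5.41 and 7.73 in the other 3 populations, whereas *Myh11* stood under 0.2 in all 4.

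Both smooth muscle actins had D2 levels in WT cells far below those in K36M cells. *Acta2*, the smooth muscle α-actin that stress fibres of contractile cells contain (transcript NM_007392, chromosome 19, 34315580 to 34329826 in mm9, minus strand), had an RPKM in WT cells of 529, 7.73, and 80.7 on these days (D0, D2, D7). The corresponding values of K36M cells were 424, 57.5, and 204, and other members are given in the same order of days. The 2 populations began within 1.25-fold of each other, yet the decrease to D2 was 68.4-fold in WT (log2 ratio -6.10, interval -6.28 to -5.92) and 7.37-fold in K36M cells (-2.88, -2.96 to -2.80). At D2 *Acta2* was 7.43-fold higher in K36M cells, and at D7 2.52-fold higher. *Actg2*, the smooth muscle γ-actin of visceral muscle (NM_009610, chromosome 6, 83462899 to 83486259, minus strand), had an RPKM of 38.5, 0.916, and 4.62 in WT and of 76.9, 12.5, and 19.7 in K36M cells. It was already 2.00-fold higher in K36M cells at D0 (log2 interval 0.89 to 1.11), just short of the threshold, and 13.7-fold higher at D2 (3.15 to 4.46), with an interval that overlapped those of *Myl9* and *Ctgf*. Of the transcript windows of 50 bases, 0.404% of those of *Acta2* were identical to other genes' protein-coding transcripts and 0 of those of *Actg2*. Pseudogenes and the rest of the genome were not searched, so whether reads were assigned to the right actin was not tested.

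Within the summed RPKM of the 6 actin genes, *Acta2* and *Actg2* together made up in WT cells 32.0% at D0, 2.11% at D2, and by D7 11.8%. In K36M cells the share was 27.5%, 12.8%, and 20.8%. The remainder was nearly all *Actb*, the non-muscle β-actin, which SRF also drives, at 1179, 397, and 635 RPKM in WT and 1283, 467, and 839 in K36M cells. At D2 this non-muscle actin was 2.97-fold below D0 in WT cells, against 68.4-fold for *Acta2*. *Actg1* counted for under 1% in these 6 libraries, at the low listed values given above, and for 31.1% to 46.3% in the other 8. The shares, and the place of *Actb* in them, thus depend on how *Actg1* was listed and are compared within this experiment only.

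The myosin subunits differed in level. *Myl9*, the regulatory light chain whose phosphorylation starts contraction (NM_172118, chromosome 2, 156601156 to 156607394, plus strand), had an RPKM of 102, 1.21, and 20.8 in WT and 96.2, 12.9, and 59.6 in K36M cells. No difference between the populations was detectable at D0, where the log2 interval of K36M over WT ran from -0.17 to 0.00. From there *Myl9* was 84.3-fold lower at D2 in WT and 7.46-fold lower in K36M cells, which left it 10.7-fold higher in K36M cells (log2 interval 2.81 to 4.08). *Myh11* (NM_001161775, chromosome 16, 14194620 to 14291501, minus strand) was a trace transcript, at 0.206, 0.151, and 0.353 RPKM in WT and 1.68, 0.157, and 0.546 in K36M cells. These are 29, 19, and 31 reads in WT and 220, 13, and 44 in K36M cells. It went against the rest of the group: it was 8.17-fold higher in K36M cells at D0 (log2 interval 2.47 to 3.64), and at D2, where 8 other members were higher in K36M cells, no difference was detectable (-1.08 to 1.15).

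Both tropomyosins, which lie along the actin filament and gate myosin, remained above 10 RPKM on each day in WT and K36M cells. *Tpm1* (NM_024427, chromosome 9, 66870397 to 66897213, minus strand) had an RPKM of 281, 24.6, and 67.5 in WT and 317, 90.7, and 204 in K36M cells. *Tpm2* (NM_009416, chromosome 4, 43527583 to 43536637, minus strand) had 79.2, 12.7, and 20.6 in WT and 100.3, 66.8, and 67.0 in K36M cells. Of all members *Tpm2* had the flattest course in K36M cells: it was 1.5-fold lower at D2 than at D0, against 6.25-fold in WT cells, and did not differ detectably between D2 and D7 (log2 interval -0.09 to 0.10). *Tpm1* was 11.4-fold lower at D2 in WT and 3.50-fold lower in K36M cells. *Tpm1* is listed under 10 RefSeq transcripts that share exons, and the decrease from D0 to D2 lay between 8.95-fold and 13.4-fold in WT and between 3.45-fold and 3.85-fold in K36M cells whichever was read.

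Among the proteins that bind or regulate actin filaments, *Tagln* and *Cnn1* were far lower at D2 than at D0 in WT cells, and *Cald1* had the narrowest range of the group. *Tagln*, the actin-bundling SM22α (NM_011526, chromosome 9, 45737711 to 45744141, minus strand), had an RPKM of 136, 4.32, and 33.0 in WT and 187, 25.0, and 140.4 in K36M cells. It was 5.78-fold higher in K36M cells at D2 (log2 interval 2.25 to 2.82) and at D7 was 1.34-fold below its own D0 level in K36M cells, against 4.12-fold below it in WT cells. *Tagln* overlaps *Pcsk7* on the opposite strand by 65 bases, and 1.04% of its windows of 50 bases were shared with that gene. *Cnn1*, the calponin that restrains actomyosin (NM_009922, chromosome 9, 21903725 to 21914074, plus strand), had an RPKM of 11.7, 0.527, and 0.869 in WT and 24.5, 2.13, and 8.20 in K36M cells. In WT cells no difference between D2 and D7 was detectable at this depth (log2 interval -0.21 to 1.66, 20 and 23 reads), and the difference between K36M and WT cells was larger at D7 (9.44-fold) than at D2 (4.04-fold), with overlapping intervals. *Cald1*, caldesmon, an actin-binding brake on myosin that is expressed in smooth muscle and in many other cell types (NM_145575, chromosome 6, 34548500 to 34725473, plus strand), had an RPKM of 321, 105, and 103 in WT and 299.6, 151, and 229 in K36M cells. It was the most abundant member at D2 in both populations, and it was the counted member with the smallest ratio of K36M to WT at D2 (1.45-fold). Genes annotated on the opposite strand overlap *Cald1* (*Gm13861*, *Gm11157*, *Npn2*, and *Gm14547*) and *Ctgf* (*Gm15270*), and since it is not given whether strand was used in the counting, their reads may be included.

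*Ctgf*, the secreted matrix protein that TGF-β and tension induce (NM_010217, listed as *Ccn2* in the RefSeq table, chromosome 10, 24315248 to 24318489, plus strand), had an RPKM of 106, 1.11, and 15.7 in WT and 29.2, 10.7, and 25.8 in K36M cells. It was the only member that was over 2-fold lower in K36M cells at D0 (3.64-fold, log2 interval -1.95 to -1.78) and was 9.66-fold higher in them at D2. The decrease from D0 to D2 was 95.7-fold in WT cells, with a log2 interval (-7.01 to -6.18) that overlapped those of *Myl9* and *Acta2*, and 2.72-fold in K36M cells.

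Taken day by day, few members separated K36M from WT cells at D0 and most did at D2 and D7. At D0, 1 of 10 members was over 2-fold lower (*Ctgf*, background 6.36%) and 2 were over 2-fold higher in K36M cells (*Cnn1* and *Myh11*, background 5.02%), with a median log2 ratio of 0.26 against 0.09 for all counted genes. At D2, 8 of 9 counted members (all but *Myh11*) were over 2-fold higher in K36M cells (background 11.2%, median 2.53 against 0.07), and *Cald1* was not. At D7, 8 of 9 were (background 11.7%, median 1.59 against 0.12), with *Ctgf* at 1.64-fold the exception. The change from D0 to D2 was then compared between the populations as a difference of log2 ratios. It was over 1 in favour of K36M for 7 of 10 members (background 14.9%), from 1.71 for *Tpm1* to 5.14 for *Ctgf*, and it was 0.95 for *Cnn1* and 0.64 for *Cald1*. It went the other way for *Myh11*, at -2.97 (background 6.16%). For D0 to D7 it was over 1 for 9 of 10 members (background 14.9%), and for *Myh11* it was -2.40 (background 9.72%). The WT and K36M populations were each made by retroviral infection. A difference that the infection or selection brought cannot be told apart from that of the mutant histone.

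**Figure D2:**
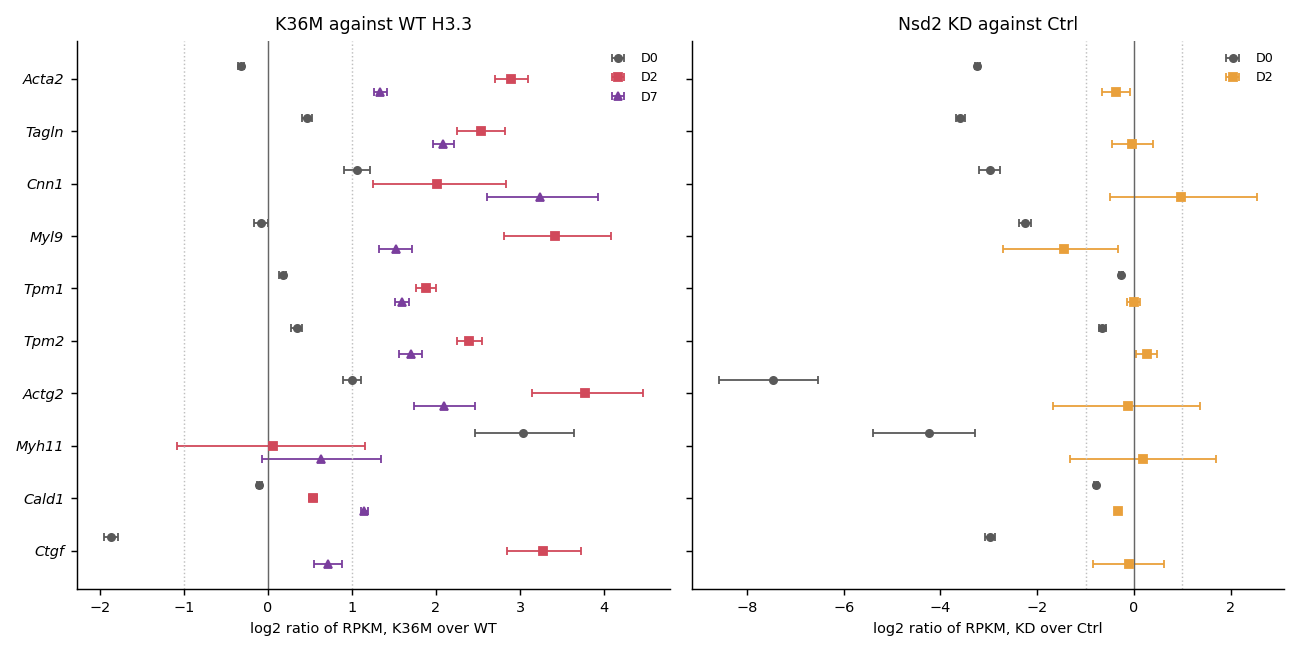
Log2 ratio of RPKM for each of the 10 genes, K36M over WT cells at D0, D2, and D7 (left) and *Nsd2* KD over Ctrl cells at D0 and D2 (right), 1 library per condition; bars are 95% counting intervals and dotted lines mark 2-fold. On the left the D2 points of 8 genes lie between 1.88 and 3.77, whereas on the right the D0 points of 7 genes lie between -7.46 and -2.26 and the D2 points lie between -1.45 (*Myl9*) and 0.97 (*Cnn1*, with 7 and 12 reads).

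*Nsd2* KD cells gave another pattern: the contractile genes were already lower before induction and stood near the Ctrl level at D2. At D0, 7 of 10 members were over 2-fold lower in KD than in Ctrl cells (background 10.8%, median log2 ratio -2.98 against 0.00). At D2, 1 of 6 counted members was over 2-fold lower (*Myl9*, background 9.57%, median -0.19 against -0.05), and no member was over 2-fold higher. The 4 others (*Cnn1*, *Actg2*, *Myh11*, and *Ctgf*) were under 1 RPKM in both libraries. Within Ctrl cells, 10 of 10 members were over 2-fold lower at D2 than at D0 (background 16.1%, median -6.99), and within KD cells 8 of 8 counted members were (all but *Actg2* and *Myh11*, background 16.8%, median -3.80). D2 levels over 2-fold above those of control cells, which K36M cells had for 8 members, were thus not found in KD cells. The D0 library of each population enters 2 of these comparisons, and the D2 library likewise.

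In Ctrl cells *Acta2* had an RPKM of 1193 at D0 and 7.00 at D2, and in KD cells of 126 and 5.41. *Tagln* had 425 and 3.28 in Ctrl and 35.3 and 3.21 in KD cells. *Myl9* had 161 and 1.28 in Ctrl and 33.6 and 0.47 in KD cells. These 3 genes were 9.44-fold, 12-fold, and 4.79-fold lower in KD cells at D0, and the D2 levels of *Tagln* did not differ beyond counting error (log2 interval -0.45 to 0.39). *Cnn1* had 47.7 and 0.175 in Ctrl and 6.04 and 0.342 in KD cells, the D2 values being 7 and 12 reads. *Ctgf* had 176 and 0.764 in Ctrl and 22.3 and 0.707 in KD cells, a 7.89-fold lower level in KD cells at D0.

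The largest difference was that of *Actg2*, with 68.9 and 0.377 RPKM in Ctrl and 0.393 and 0.344 in KD cells. At D0 this was 1791 reads against 9, a ratio of 176-fold (log2 interval -8.59 to -6.53), and within KD cells no difference between D0 and D2 was detectable (log2 interval -1.76 to 1.36). *Myh11* likewise had 1.48 and 0.0677 in Ctrl and 0.0783 and 0.0773 in KD cells, with 9 reads in each KD library. The tropomyosins and caldesmon stood apart from these 7 genes. *Tpm1* had 329 and 28.2 in Ctrl and 273 and 28.2 in KD cells, the D0 levels within 1.21-fold. *Tpm2* had 118 and 8.06 in Ctrl and 75.1 and 9.66 in KD cells. *Cald1* had 223 and 70.2 in Ctrl and 129 and 55.4 in KD cells. These 3 genes, which are also expressed in many non-muscle cells, were under 2-fold lower in KD cells at D0. As a difference of log2 changes from D0 to D2, the decrease was smaller in KD cells by over 1 for 6 of 10 members (background 7.94%), from 2.87 for *Acta2* to 7.32 for *Actg2*, and each of these 6 was among the 7 that began lower.

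Within the summed RPKM of the 6 actins, *Acta2* and *Actg2* made up in Ctrl cells 32.5% at D0 and 0.991% at D2, and in KD cells 5.36% and 0.684%. *Actb* had an RPKM of 1402 in Ctrl and 1141 in KD cells at D0, and *Actg1* of 1209 and 1094, so the 2 non-muscle actins were within 1.23-fold while *Acta2* was 9.44-fold lower. The lentiviral Ctrl and KD populations are each 1 infection, and a difference between populations that the infection or selection brought cannot be told apart from that of the shRNA.

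The group was also lower with the PPARγ ligand, in cells that were not given induction medium. In WT cells with ectopic PPARγ, 8 of 9 counted members (all but *Myh11*) were over 2-fold lower with Rosi than with DMSO (background 5.05%, median log2 ratio -2.17 against 0.06). In K36M cells 8 of 10 were (background 8.85%, median -1.62 against -0.04). *Acta2* had an RPKM of 1372 with DMSO and 306 with Rosi in WT and of 955 and 276 in K36M cells, a 4.49-fold and a 3.46-fold decrease. *Ctgf* had 199 and 19.8 in WT and 72.8 and 9.73 in K36M cells, a 10.1-fold and a 7.48-fold decrease. *Tagln* had 367 and 72.3 in WT and 467 and 181 in K36M cells. After Rosi *Tagln* was 2.5-fold higher in K36M cells, having been within 1.27-fold with DMSO.

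*Cnn1* had 32.5 and 4.56 RPKM in WT and 65.5 and 16.9 in K36M cells. *Myl9* had 167 and 33.9 in WT and 133 and 44.6 in K36M cells. *Actg2* had 119 and 28.2 in WT and 179.5 and 56.3 in K36M cells. In each of these 3 genes the fold decrease was larger in WT than in K36M cells, *Cnn1* showing the widest gap (7.12-fold against 3.88-fold). *Tpm1* had 425 and 143 in WT and 413 and 204 in K36M cells, values 2.97-fold and 2.03-fold apart. *Tpm2* had 166 and 53.6 in WT and 193 and 96.3 in K36M cells, the latter on the edge of the threshold. *Cald1* had 221 and 118 in WT and 242 and 142 in K36M cells, under 2-fold lower in both populations. *Myh11* was again at trace level in WT cells (0.391 and 0.22 RPKM) and reached 3.22 with DMSO in K36M cells, its highest value in any library, against 0.575 with Rosi.

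Between the populations, K36M cells with DMSO had 1 of 10 members over 2-fold lower (*Ctgf*, background 3.11%) and 2 over 2-fold higher (*Cnn1* and *Myh11*, background 5.09%). These are the genes that were called at D0 of the adipogenesis course, in other libraries of WT and K36M cells. Per the paper, PPARγ was introduced into cells already selected for H3.3. Whether both sets came from the same H3.3 infection is not given, so the recurrence is not an independent check. With Rosi, 1 of 9 was over 2-fold lower (*Ctgf*, background 12.1%) and 2 were over 2-fold higher (*Tagln* and *Cnn1*, background 7.02%). The median log2 ratio of K36M to WT with Rosi was 0.51, against 2.53 at D2 of adipogenesis, and *Acta2* was slightly lower in K36M cells with Rosi (log2 ratio -0.15, interval -0.20 to -0.10). The treatments differ in agent, time, and cell density, so the 2 values are given side by side only.

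**Figure D3:**
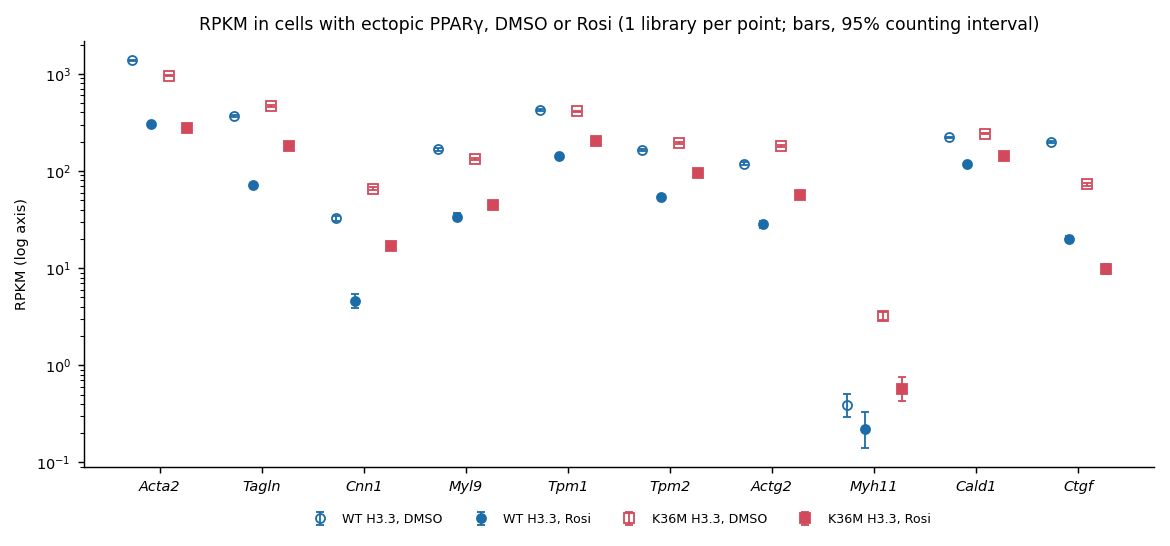
RPKM (log axis) of the 10 genes in cells with ectopic PPARγ, WT H3.3 (blue circles) or K36M H3.3 (red squares), with DMSO (open) or Rosi (filled), 1 library per point; bars are 95% counting intervals. The filled points lie below the open ones for each gene (with overlapping intervals for *Myh11* in WT cells), *Acta2* going from 1372 to 306 in WT cells.

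Over the 14 libraries the members had similar profiles. Across the 45 pairs of members, Pearson's r of log2(RPKM + 1) lay between 0.52 and 0.99 with a median of 0.88, and 35 pairs were over 0.8. These libraries share cells, controls, and time points, so the coefficients describe the profiles and have no p. *Tagln* and *Acta2* were closest to the mean of the other 9 members (r = 0.99 and 0.98), and *Myh11* was farthest (0.67), followed by *Cald1* (0.88) and *Actg2* (0.90). The range from the lowest to the highest library was 521-fold for *Actg2*, 375-fold for *Cnn1*, 356-fold for *Myl9*, 282-fold for *Ctgf*, 254-fold for *Acta2*, and 145.5-fold for *Tagln*, against 47.6-fold for *Myh11*, 23.9-fold for *Tpm2*, 17.3-fold for *Tpm1*, and 5.80-fold for *Cald1*. The lowest library held 8 reads of *Actg2*, 7 of *Cnn1*, 9 of *Myl9*, and 9 of *Myh11*. These ranges are therefore rough, and the order of the largest ones is not settled. By RPKM, which is per length, the order in WT cells at D0 was *Acta2*, *Cald1*, *Tpm1*, *Tagln*, *Ctgf*, *Myl9*, *Tpm2*, *Actg2*, *Cnn1*, and *Myh11*, and only *Ctgf* and *Myl9* had overlapping intervals. At D2 *Cald1*, *Tpm1*, and *Tpm2* headed the order and *Acta2* came after them, in WT and in K36M cells alike.

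*Srf*, the factor known to drive the group, had an RPKM of 26.8, 11.7, and 11.8 in WT and 22.2, 13.2, and 16.7 in K36M cells. It was 2.29-fold lower at D2 than at D0 in WT and 1.67-fold lower in K36M cells, and K36M and WT cells differed 1.13-fold at D2. *Mkl1* had 20.3, 11.7, and 15.8 in WT and 30.5, 18.3, and 23.7 in K36M cells, and *Mkl2* had 8.96, 7.51, and 6.79 and then 9.19, 8.78, and 11.1. *Myocd*, the partner that marks smooth and cardiac muscle, stayed under 0.5 RPKM in all 14 libraries. Over a list of 15 genes of the SRF pathway (the factors above, regulators of actin filaments, ETS partners, and TGF-β signalling), 14 were counted, and 3 were over 2-fold lower at D2 than at D0 in WT cells, with a median log2 ratio of -0.69 (background 17.3%). In K36M against WT cells at D2, 2 of 14 were over 2-fold higher (*Elk3* and *Tgfb1*, median 0.25, background 11.2%). Among its 4 most abundant genes, *Rhoa*, *Rock2*, and *Mkl1* were under 2-fold apart between K36M and WT cells at D2, and *Tgfb1*, the TGF-β1 ligand, was 2.17-fold higher in K36M cells at D2 (29.8 against 13.7 RPKM) and 2.5-fold higher at D7. In KD against Ctrl cells at D0, where 7 members were lower, 0 of 14 genes of the pathway were over 2-fold lower (background 10.8%), with a median of -0.23.

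Other genes of the actomyosin cytoskeleton were compared at D2 and between populations. Of a list of 25, 24 were found by symbol, and a gene whose transcript was matched to no symbol would be missed. Of 22 counted, 12 were over 2-fold lower at D2 than at D0 in WT cells (background 17.3%), with a median log2 ratio of -1.27 against -4.98 for the members. Within K36M cells 12 of 23 were (background 11.2%), with a median of -1.01 against -2.75 for the members. In K36M against WT cells at D2, 5 of 22 were over 2-fold higher (median 0.51, background 11.2%), and in KD against Ctrl cells at D0, 7 of 22 were over 2-fold lower (median -0.53, background 10.8%). The 4 most abundant were *Tpm4*, a non-muscle tropomyosin, *Flna*, a filament crosslinker, *Myh9*, the main non-muscle myosin heavy chain, and *Myl6*, the essential light chain. *Tpm4* had 318, 98.7, and 113 RPKM in WT and 355, 176, and 226 in K36M cells. *Flna* had 305, 98.7, and 129 in WT and 280.1, 112, and 152 in K36M cells. *Myh9* had 238, 68.5, and 121 in WT and 223, 82.3, and 192 in K36M cells, so the non-muscle heavy chain was within 1.2-fold between the populations at D2, where *Myl9* was 10.7-fold apart. *Myl6* was 2.75-fold higher in K36M cells at D2 (52.0 against 18.9 RPKM).

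*Ctgf* was set beside 15 genes of the YAP and TEAD list, of which 14 were counted at D2 in WT cells. Of these, 7 were over 2-fold lower at D2 than at D0 (median log2 ratio -1.19, background 17.3%), and in K36M against WT cells at D2, 5 of 14 were over 2-fold higher (median 0.49, background 11.2%). *Cyr61*, the relative of *Ctgf* in sequence and function, had an RPKM of 119.6, 14.2, and 37.7 in WT and 122, 90.6, and 103 in K36M cells. Unlike *Ctgf* it began level in the 2 populations at D0, and at D2 it was 6.38-fold higher in K36M cells. For K36M over WT cells at D2, *Amotl2*, another target, had a log2 ratio of -0.63, the receptor gene *Axl* of 1.01, and *Yap1* of -0.03.

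The immediate early genes, which SRF drives with ETS partners instead of Mkl factors, gave mixed counts. Of 10 listed, 8 were counted in WT cells from D0 to D2, of which 0 were over 2-fold lower (background 17.3%) and 3 over 2-fold higher (background 9.38%), with a median log2 ratio of 0.15. From D0 to D2 of Ctrl cells 4 of 9 were over 2-fold lower (median -0.69, background 16.1%), and in KD against Ctrl cells at D0, 3 of 9 were (median -0.11, background 10.8%). At D7, where 8 of 9 members were higher in K36M cells, 6 of 9 of these genes were too (median 2.05, background 11.7%). *Junb* had 45.3, 39.0, and 15.7 RPKM in WT and 35.4, 46.0, and 84.2 in K36M cells. *Egr1* had 15.1, 33.3, and 15.5 in WT and 36.6, 75.2, and 108 in K36M cells. *Ier2* was 2.32-fold higher in K36M cells at D7, and *Mcl1* was within 1.14-fold.

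The non-members whose profile over the 14 libraries was most like the members' mean were sought among 8524 genes with a mean RPKM of at least 5. The closest were *Cnn2* (r = 0.97), *Fstl3*, *Fblim1*, the transcript NM_009365, *Lrrk1*, *Anxa3*, *Lasp1*, and *Ankrd1* (r = 0.95). NM_009365 was matched to no gene symbol, so whether it belongs to a gene of the lists above was not checked. *Cnn2*, the calponin of non-muscle cells, had an RPKM of 171, 6.49, and 54.2 in WT and 139, 34.7, and 145 in K36M cells. In Ctrl cells it had 225 and 7.21, and in KD cells 92.7 and 3.97. *Ankrd1*, a target of YAP and TEAD found in muscle, had 65.9, 0.741, and 5.83 in WT and 75.4, 4.70, and 39.4 in K36M cells. *Fblim1* and *Lasp1*, which encode proteins of focal adhesions and actin filaments, had log2 ratios of 1.63 and 0.69 for K36M over WT cells at D2. The profiles running most opposite were headed by *Zfyve27* (r = -0.94) and *Tmed4* (-0.93), and held *Irs2*, the insulin receptor substrate (-0.92), at 7.83, 102, and 22.9 RPKM in WT and 9.74, 41.5, and 8.96 in K36M cells.

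As a sum, adipocyte markers were higher in induced WT and Ctrl cells than at D0. The sum was also higher in Rosi-treated than in DMSO-treated cells, and the members' sum was lower in these comparisons. The summed RPKM of 8 adipocyte markers (2 of them, *Ucp1* and *Cidea*, under 1 in all libraries) was, from D0 to D2 and D7, 257, 5642, and 5229 in WT and 86.6, 2072, and 489.6 in K36M cells. The summed RPKM of the 10 members was 1605, 158, and 347 in WT and 1556, 429.9, and 957 in K36M cells. Between D2 and D7 of WT cells the members' sum was higher again while the adipocyte sum stayed near its D2 value. The adipocyte sum of Ctrl cells was 49.8 at D0 and 2421 at D2, and that of KD cells 45.4 and 158. The members' sum was 2743 and 119 in Ctrl and 701 and 104 in KD cells, so KD cells at D2 had few adipocyte transcripts and as few contractile ones as Ctrl cells. With DMSO and Rosi the adipocyte sum was 251 and 3577 in WT and 194 and 1463 in K36M cells. *Fabp4*, which binds fatty acids, had an RPKM of 3249 in WT, 1473 in K36M, 1269 in Ctrl, and 34.5 in KD cells at D2. It made up most of the D2 sums of WT, K36M, and Ctrl cells, but not of KD cells. *Pparg*, another of the 8 markers, was 2.11-fold higher in KD than in Ctrl cells at D0. In the cells with ectopic PPARγ, the adipocyte sums can include the introduced *Pparg*. The part of the adipocyte share in the members' levels was not tested.

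**Figure D4:**
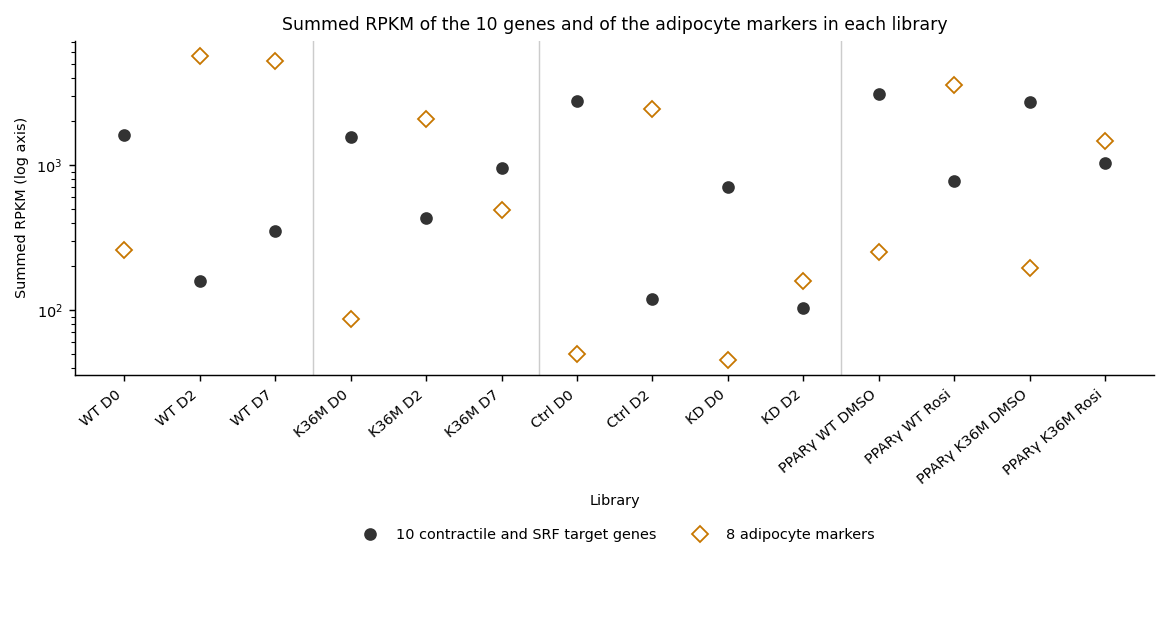
Summed RPKM (log axis) of the 10 contractile and SRF target genes (filled circles) and of 8 adipocyte markers (open diamonds) in each of the 14 libraries, with lines between WT, K36M, shRNA, and PPARγ cells. In WT and Ctrl cells at D2 the members' sum is lower and the adipocyte sum higher than at D0, whereas KD cells at D2 hold 104 and 158.

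Markers of other cell types had low sums next to the members, and some of them were also lower at D2. Of 6 markers of pericytes and vascular smooth muscle, 2 (*Kcnj8* and *Abcc9*) were under 1 RPKM in all libraries and the sum ran from 8.98 to 33.4, with 17.8 and 26.2 at D0 and D2 of WT cells. The sum was carried by *Mcam*, 7.50-fold higher at D2, whereas *Rgs5* was 12.7-fold and *Cspg4* 9.82-fold lower, as the members were, and of 4 counted markers 2 were over 2-fold lower and 1 higher (median log2 ratio -1.63, backgrounds 17.3% and 9.38%). Of 8 skeletal muscle markers, 7 were under 1 RPKM in all libraries, *Myod1* and *Myog* among them, and the exception was *Acta1*, the skeletal α-actin, which was 10.4-fold lower at D2 than at D0 in WT cells, 3.50-fold higher in K36M than WT cells at D2, and at 67.5 with DMSO and 62.8 with Rosi in K36M cells. The sums of 6 endothelial markers (0.131 to 2.47) and of the 5 found of 6 macrophage and leukocyte markers (0.406 to 8.28) were low throughout, and *Cd14*, the macrophage marker that was counted, was 8.20-fold lower at D2 in WT cells (3.15 and 0.385 RPKM) and 2.91-fold higher in K36M cells at that day. The 8 markers of brown preadipocytes and mesenchymal progenitors had, over the same days, sums of 163, 57.5, and 157 in WT and of 125, 81.4, and 284 in K36M cells. These sums too were lowest at D2 and higher again at D7, and the part of any of these markers' cells in the members' levels was not tested. Among 10 reference genes, 3 were over 2-fold lower at D2 in WT cells (*Actb*, *Actg1*, and *B2m*) and 1 higher (*Hprt*), and their summed RPKM was 2843 at D0 and 1635 at D2. Their median log2 ratio was 0.02 for WT cells at D2 against D0 and 0.23 for K36M against WT cells at D2, where *Rplp0* had a ratio of 0.08 and *B2m* of 0.95.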

How the data were processed

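Of the 34 samples of the series, the 14 RNA-Seq libraries were used here (6 of the WT and K36M course, 4 of the shRNA cells, 4 of the PPARγ cells), and the ChIP-Seq samples were not. Per the study's methods, mRNA was captured with oligo-dT beads and sequenced on an Illumina HiSeq instrument. The RPKM values per RefSeq transcript were made by the authors and used as deposited. The submitters' processing notes name the mm9 build, CASAVA 1.8.2, and SICER without saying what each did, and the program that aligned and counted the RNA-Seq reads is not given in the sources used here. Names were matched through the RefSeq gene table (28436 of 29082 transcripts), and gene positions were taken from GENCODE M1 (mm9).

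Each RPKM was turned back into whole reads. Ratios of 2 libraries were given exact Clopper-Pearson intervals at the 95% level, differences of 2 changes an interval by normal approximation. Members and lists were chosen with earlier results of these data known. The most abundant 4 genes of each list and the 8 genes most like the members by r were named, with *Srf*, *Mkl2*, and *Myocd*, and *Elk3*, *Irs2*, *Hprt*, and single markers of other cell types were named after their values were seen. The comparisons of D7 with D2 were added after values were seen. Each promoter was searched over the 250 bases before its start. Alternatives were a pseudocount, rescaling, no filter, a 1.5-fold threshold, intervals that exclude a ratio of 1, and the mean over transcripts. Python 3.11.15, numpy 2.4.6, pandas 2.3.3, scipy 1.17.1, and matplotlib 3.10.9 were used.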

Additional observations from a re-analysis of the deposited data

Results flagged for a closer look

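Effects that pointed in opposite directions under 2 conditions are listed here. With 1 library on each side, none of these differences was tested. *Myh11* at D7 against D0 had a log2 ratio of 0.78 in WT and of -1.62 in K36M cells, on 29 and 31 reads in WT and 220 and 44 in K36M cells. For K36M against WT cells, *Acta2* had a log2 ratio of -0.32 at D0, 2.89 at D2, and 1.33 at D7. *Cald1* had -0.10, 0.54, and 1.15 on these days. *Ctgf* had -1.87, 3.27, and 0.72, so its low D0 level in K36M cells was followed by higher levels than in WT cells. For *Nsd2* KD against Ctrl cells, *Tpm2* had -0.65 at D0 and 0.26 at D2. For K36M against WT cells with ectopic PPARγ, *Myl9* had -0.34 with DMSO and 0.40 with Rosi, and *Tpm1* had -0.04 and 0.51.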

How the results depend on the processing

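Counts of members over 2-fold were recomputed with a pseudocount of 1, with libraries rescaled by the median ratio over 9618 genes (log2 factors of -0.19 to 0.21), with no filter on low values, with a 1.5-fold threshold, with the added demand that the interval exclude a ratio of 1, and from the mean of a gene's transcripts. No ratio of a called member changed sign. Under the pseudocount, which shrinks low levels, K36M against WT cells had 1 member higher at D0 in place of 2, and 1 in place of 2 with DMSO, KD against Ctrl cells had 0 lower at D2 in place of 1, K36M against WT cells had 0 lower with Rosi in place of 1, and 0 had a change from D0 to D7 over 2-fold below that of WT cells in K36M cells in place of 1 (*Myh11*). With rescaling, K36M against WT cells had 1 higher at D0 in place of 2 and 0 lower with Rosi in place of 1, the members concerned lying near 2-fold. At 1.5-fold, K36M against WT cells had 4 higher with Rosi in place of 2. The remaining counts stayed within 1.5 times. Of the 200 ratios and differences of single members, 46 left their interval with the pseudocount, 24 with rescaling, and 1 with the mean over transcripts. Every interval covers counting error only, *Myh11* rested on 9 to 56 reads in all libraries but the K36M and Ctrl ones at D0 and K36M with DMSO, and *Actg2* in KD cells on 9 reads at D0. No paired analysis was possible because each condition had 1 library, and for the same reason no replicate could be left out.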
